A study of Sus scrofa with 12 samples.

Results

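Transcripts of 10 genes that decide how pyruvate and lactate reach the mitochondrial citrate cycle were followed through the in vitro maturation of porcine oocytes. The genes were matched by name: the lactate dehydrogenase subunits LDHA and LDHB, the mitochondrial pyruvate carrier subunits MPC1 and MPC2, the pyruvate dehydrogenase subunits PDHA1, PDHB and DLAT, and the pyruvate dehydrogenase kinases PDK1, PDK2 and PDK3. All 10 names were found, on 11 of the 31908 Ensembl gene identifiers in each library, since LDHB named 2 identifiers. Of these 11 identifiers, 9 reached a mean of at least 1 FPKM (fragments per kilobase of transcript, scaled to the mapped fragments of the library) over the 12 libraries and entered the test across 7013 genes, while PDK1 and PDK2 did not and were compared on their own.

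Lactate dehydrogenase converts pyruvate and lactate into each other in the cytosol, with LDHA encoding the muscle-type subunit and LDHB the heart-type subunit. Pyruvate crosses the inner mitochondrial membrane through a carrier built from MPC1 and MPC2, and the pyruvate dehydrogenase complex then turns it into acetyl-CoA, a step that PDK enzymes switch off by phosphorylating the PDHA1 protein and that PDP phosphatases switch on again. Mammalian oocytes are known to use pyruvate, supplied in part by the surrounding cumulus cells, as a main fuel during maturation.

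The libraries were made with the SMART-Seq2 method from pools of oocytes, with 4 libraries at 0h (germinal vesicle), 4 at 22h (before metaphase I) and 4 at 46h (metaphase II). Oocytes were collected by culture time, and the names in brackets are the main stage at about that time. In an earlier study by the authors, part of the oocytes at similar times were not at the named stage, most of all at the last. Cumulus-oocyte complexes were pooled from ovaries of prepubertal gilts and cultured with epidermal growth factor, gonadotropins, follicular fluid, glucose and sodium pyruvate, and the cumulus cells were stripped off before lysis. No genotype or drug differed between the stages, and the 0h group is the control without culture time. Nothing in the labels says that replicates came from separate animals or collections, so p-values measure only the spread between these libraries, which may be technical.

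The libraries differed in more than the stage. The share of the total FPKM held by 13 mitochondrially encoded genes lay between 1.79 and 3.77% at 0h, between 8.06 and 12.02% at 22h and between 12.8 and 16.7% at 46h, and 0h replicate 4 stood apart from its group, with a correlation of 0.934 to 0.970 with the other 0h libraries against 0.979 to 0.988 among those 3. All 12 oocyte markers matched reached 1 FPKM, and their summed FPKM lay between 14460 and 20950 at 0h, between 18010 and 26090 at 22h and between 4690 and 8538 at 46h. Of 16 cumulus and granulosa cell markers matched, 13 stayed under 1 FPKM in every library, LHCGR and INHA being listed at 0. The sum of all 16 lay between 46.2 and 88.7 FPKM at 0h, between 55.6 and 86.1 at 22h and between 118 and 143 at 46h, whereas without FST, STAR and VCAN it was 0.07 to 0.78, 0.14 to 0.76 and 0.03 to 0.25 FPKM. Among markers of theca and stroma 4 of 5 matched, and among those of blood and immune cells 3 of 4, were under 1 FPKM throughout. Between 0h and 46h, 3922 genes passed the thresholds and 30.1% of them were higher at 46h, a share that was 47.0% after median-of-ratios scaling and 61.7% after quantile normalization, while the log2 fold change had a median over the tested genes of -0.25 as deposited, 0.06 and 0.37.

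The thresholds were an adjusted p below 0.05 together with a change of more than 1.5-fold, and log2 fold changes are differences of mean log2(FPKM + 1), which understate the change of low genes. Levels are given as FPKM, which is per transcript length, and ± marks the SD over n = 4 libraries. From 0h to 22h, 2 of the 9 identifiers tested passed, both lower (LDHA and MPC1), while 26.7% of all genes tested passed, 7.84% higher and 18.9% lower. From 22h to 46h 5 passed, LDHB and PDK3 higher and LDHA, PDHA1 and PDHB lower, against 42.4% of all genes (9.87% higher and 32.6% lower). Over the whole period 6 passed, the same 5 and MPC1, against 55.9% of all genes (16.8% higher and 39.1% lower). The 9 thus passed about as often as genes in general, and the results lie in which members rose, which fell and when.

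**Figure D1:**
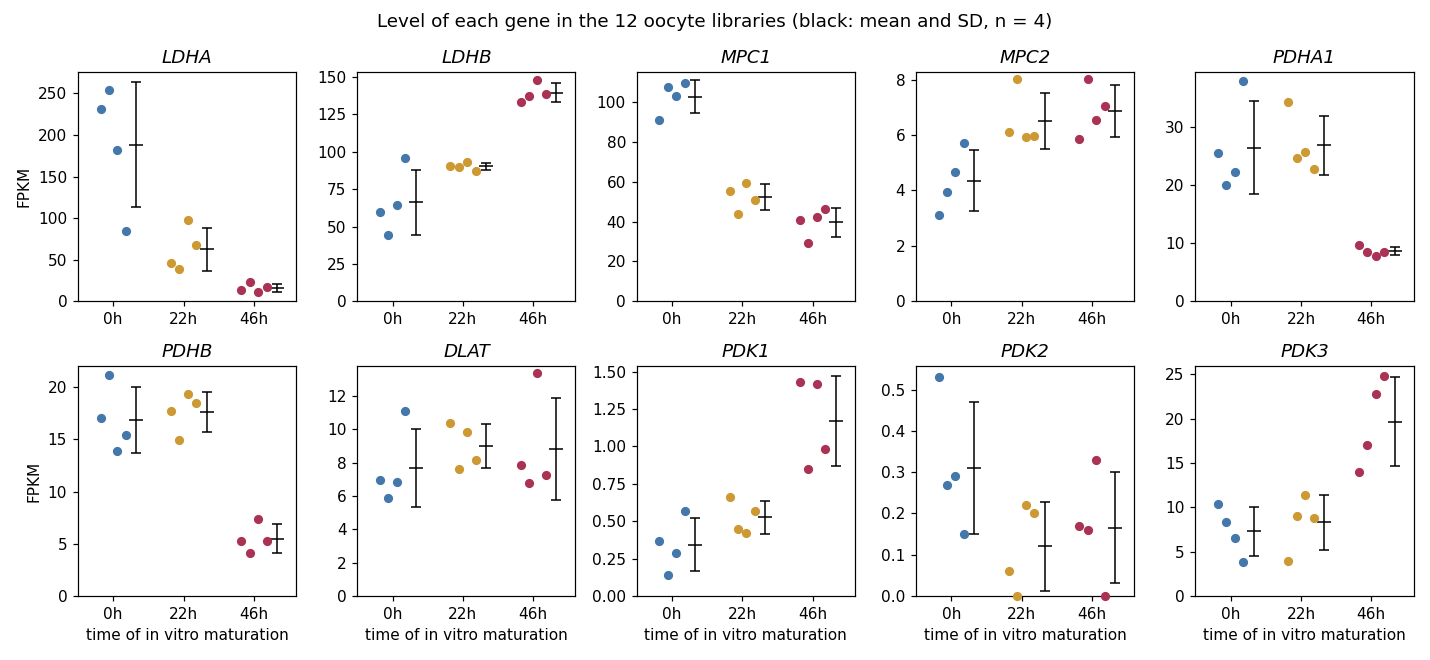
FPKM of the 10 genes in each of the 12 libraries, in a panel per gene, with points for the 4 libraries at 0h, 22h and 46h and the mean with its SD beside them. LDHA ran from a mean of 188 FPKM at 0h to 16.3 at 46h while LDHB ran from 66.2 to 139, and PDHA1 and PDHB stayed level to 22h and were lower at 46h.

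The lactate dehydrogenase subunits moved in opposite directions. LDHA fell 10.4-fold between 0h and 46h, in both steps, whereas LDHB rose 2.17-fold. Of these transcripts, LDHA was the more abundant in 3 of 4 libraries at 0h and LDHB in all 4 at 46h. The transcript of a further form, LDHC, exceeded both in every 0h and 22h library, as given below. LDHA lies at chr2:40814163-40827284 on the minus strand (RefSeq annotation of Sscrofa11.1), and LDHC, the germ-cell form of the enzyme, lies 4048 bases away on the same strand. LDHB is annotated at chr5:51810932-51831218, with 8 exons, and at chr2:12988754-12990033, as a copy in 1 exon. To show how far reads can tell these genes apart, the same 60 coding bases of each are given, 5′ to 3′, with capitals marking bases that differ from LDHB on chromosome 5 at chr5:51814109-51814168 (plus strand).
LDHB, chromosome 5: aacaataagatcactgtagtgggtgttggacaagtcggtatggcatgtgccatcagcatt
LDHB, chromosome 2: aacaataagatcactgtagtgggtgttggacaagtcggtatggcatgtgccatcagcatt
LDHA: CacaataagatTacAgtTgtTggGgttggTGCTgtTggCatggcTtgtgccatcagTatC
LDHC: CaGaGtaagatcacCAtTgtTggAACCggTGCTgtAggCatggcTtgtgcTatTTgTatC
The LDHB copy, LDHA and LDHC were read on the minus strand at chr2:12989835-12989894, chr2:40822869-40822928 and chr2:40809357-40809416. LDHA differed from LDHB at 15 of these 60 bases and LDHC at 23, while the copies of LDHB did not differ here.

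Over the aligned coding sequence LDHA and LDHB of chromosome 5 shared 69.4% of bases, LDHA and LDHC 76.8%, and LDHB and LDHC 67.8%. The LDHB copies shared 997 of 1005 bases (99.2%). A further window of 60 bases had 2 of their 8 differences, in capitals, at chr5:51828963-51829022 (plus strand) and chr2:12989181-12989240 (minus strand). It was the first window within a coding exon of the chromosome 5 gene to hold that many, and no such window held more.
LDHB, chromosome 5: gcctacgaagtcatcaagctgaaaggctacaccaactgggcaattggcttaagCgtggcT
LDHB, chromosome 2: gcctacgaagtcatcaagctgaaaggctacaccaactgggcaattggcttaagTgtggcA
The sources used here do not say which locus each LDHB identifier stands for, and fragments that fit either copy may have been divided between the identifiers, so the level of each is uncertain to that extent.

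LDHA (ENSSSCG00000013366) was at 231, 254, 182 and 84.8 FPKM at 0h, 46.2, 39.2, 97.3 and 67.2 FPKM at 22h, and 14.0, 23.1, 11.1 and 17.2 FPKM at 46h. The stage means were 188 ± 75.1, 62.5 ± 26.1 and 16.3 ± 5.17 FPKM. Every 46h library lay below every 22h library, whereas 0h and 22h overlapped, because 0h replicate 4 was under 22h replicate 3. The log2 fold change was -1.55 from 0h to 22h (SE 0.353, adjusted p = 0.00457), -1.83 from 22h to 46h (SE 0.353, adjusted p = 0.000662) and -3.38 over both (adjusted p = 1.19e-06). Without 0h replicate 4 the first of these was -1.89 (adjusted p = 0.000413). The steps did not differ by the test of their difference (-0.28 ± 0.61 (SE) on the log2 scale, adjusted p = 0.777). In pooled oocytes, fewer cells that hold a transcript and less of it per cell cannot be told apart. SMART-Seq2 primes at poly(A) tails and FPKM are relative to each library. A rise or fall of any gene here is thus one of polyadenylated RNA relative to the rest of its library.

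LDHB was led by the identifier ENSSSCG00000000576, the one that the study's own list names LDHB, and it was taken as the main value after both had been seen. It was at 59.7, 44.7, 64.5 and 95.8 FPKM at 0h, 90.6, 89.9, 93.2 and 87.4 FPKM at 22h, and 134, 137, 148 and 139 FPKM at 46h. The 46h libraries were above all others, the 22h libraries lay close together, and 0h replicate 4 was above all 22h libraries while the other 0h libraries were below them. LDHB rose between 22h and 46h (log2 fold change 0.62, SE 0.192, adjusted p = 0.0154) and over the whole period (1.12, adjusted p = 0.000152). With TPM scaling the difference between 22h and 46h was 0.53 (adjusted p = 0.0276), under the fold threshold. From 0h to 22h the difference was 0.49 (adjusted p = 0.0638), and without 0h replicate 4 it passed at 0.69 (adjusted p = 0.00338).

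The other LDHB identifier, ENSSSCG00000032557, was far lower, at 2.18 ± 0.80, 2.18 ± 0.298 and 3.54 ± 0.944 FPKM. Its log2 difference between 0h and 46h was 0.52 (adjusted p = 0.0300), which is under the fold threshold. It passed that threshold with 4 of the other scalings and pseudocounts tried, among them median-of-ratios scaling (0.82, adjusted p = 0.00120). It also passed without 0h replicate 1 (0.67, adjusted p = 0.0077) and without 46h replicate 4 (0.61, adjusted p = 0.025).

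The balance within each library does not depend on scaling between libraries. LDHB made up 20.5, 15.0, 26.1 and 53.0% of the summed FPKM of LDHA and LDHB at 0h, 66.2, 69.6, 48.9 and 56.5% at 22h, and 90.5, 85.6, 93.1 and 89.0% at 46h. All 46h libraries were above all others, and 0h replicate 4 alone reached the range of the 22h libraries. With both LDHB identifiers counted, the means were 29.3, 60.9 and 89.8%, close to those of the main identifier alone (28.7, 60.3 and 89.5%). Meanwhile the sum of LDHA and LDHB was 254 ± 54.2, 153 ± 27.3 and 156 ± 5.83 FPKM, so the 22h and 46h sums overlapped while their makeup did not.

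LDHC, which is not among the 10 genes, changed what these shares are a share of. It was at 811, 864, 699 and 568 FPKM at 0h, 733, 685, 784 and 831 FPKM at 22h, and 22.4, 14.8, 16.6 and 20.2 FPKM at 46h. From 22h to 46h LDHC fell 39.3-fold (log2 fold change -5.30, SE 0.176, adjusted p = 2.38e-11), and from 0h to 22h it differed by 0.06 (adjusted p = 0.826). LDHC thus held between 73.6 and 75.9% of the lactate dehydrogenase FPKM at 0h, between 80.5 and 84.3% at 22h and between 8.45 and 13.2% at 46h. Counted this way, LDHB held 3.84 to 12.8%, 8.87 to 11.04% and 78.4 to 84.3%, and LDHA held 11.3 to 21.9%, 4.81 to 9.99% and 6.29 to 13.2%. The sum of these 3 transcripts was 990 ± 185 FPKM at 0h, 911 ± 83.3 at 22h and 174 ± 2.90 at 46h. The D-lactate dehydrogenase LDHD was listed at 0 in every library.

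**Figure D2:**
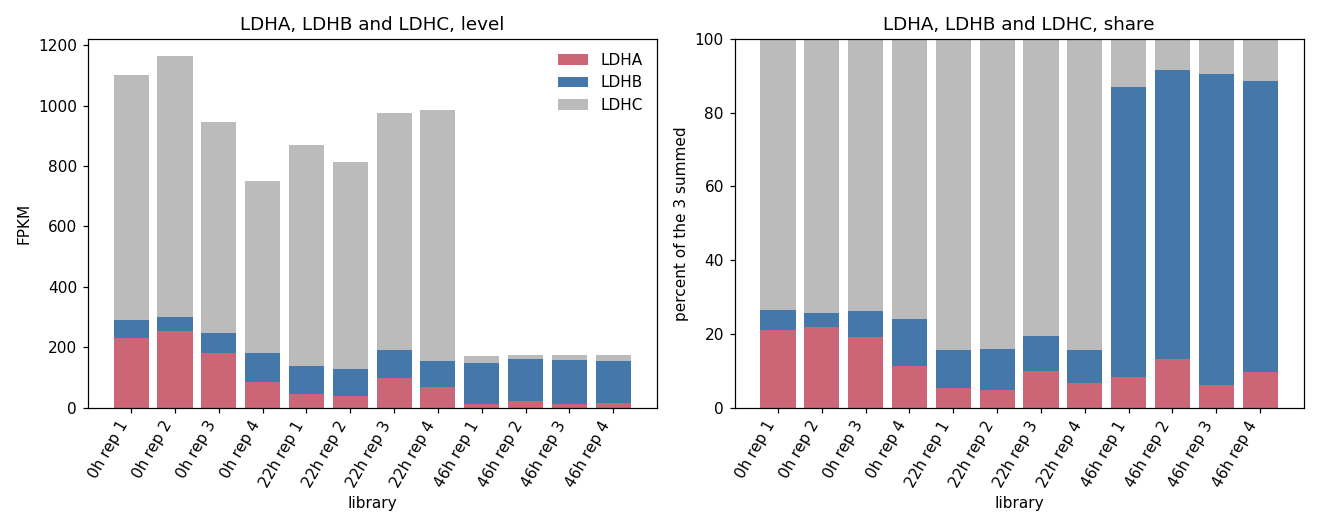
Stacked bars of LDHA, LDHB and LDHC in each of the 12 libraries, as FPKM and as percent of their sum. LDHC held at least 73.6% of the sum in every 0h and 22h library, and LDHB at least 78.4% in every 46h library, where the sum itself was 170 to 176 FPKM.

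The subunits of the mitochondrial pyruvate carrier did not move together. MPC1 fell 2.58-fold over the whole period, while MPC2 lay 1.49-fold higher at 46h on the log2(FPKM + 1) scale, just under the fold threshold. MPC1 lies at chr1:2541475-2552864 and MPC2 at chr4:83069914-83091687, both on the plus strand. The carrier works as a complex of both proteins, and the transcript of MPC1 was the more abundant in every library.

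MPC1 (ENSSSCG00000032916) was at 90.9, 107, 103 and 109 FPKM at 0h, 55.5, 43.7, 59.2 and 50.9 FPKM at 22h, and 40.7, 29.2, 42.2 and 46.3 FPKM at 46h. The 0h libraries lay above all others without overlap, and the 22h and 46h libraries overlapped. The log2 fold change was -0.96 from 0h to 22h (SE 0.169, adjusted p = 0.000794), -0.40 from 22h to 46h (adjusted p = 0.0628) and -1.37 over both (adjusted p = 6.85e-06), or -0.88 over both after quantile normalization. That the first step was larger is not shown by the test of their difference (0.56 ± 0.293 (SE), adjusted p = 0.195), which passed only after quantile normalization (0.86, adjusted p = 0.0440) among the alternatives tried. The log2 difference of MPC1 from 22h to 46h ran from -0.494 to -0.0098 over those alternatives.

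MPC2 (ENSSSCG00000006304) was at 3.10, 3.93, 4.66 and 5.71 FPKM at 0h, 6.12, 8.03, 5.94 and 5.96 FPKM at 22h, and 5.84, 8.03, 6.53 and 7.06 FPKM at 46h. Each 0h library was below every later library. The log2 difference was 0.50 from 0h to 22h (SE 0.176, adjusted p = 0.0416) and 0.57 from 0h to 46h (adjusted p = 0.0109), both under the fold threshold of 1.5, and 0.07 between 22h and 46h (adjusted p = 0.773). Without 0h replicate 4, the highest at 0h, both passed, at 0.62 (adjusted p = 0.0121) and 0.69 (adjusted p = 0.00290). Some of the 22 alternatives cannot move a log2 difference between stages, so MPC2 could not pass in them. These are other filters, no trend, the replicate block, a fit of only the groups compared, and leaving out a library of the uncompared stage. The difference from 0h to 22h passed in 4 of 22 alternatives. The difference between 0h and 46h passed in 8 of 22 alternatives, among them median-of-ratios scaling (0.92, adjusted p = 0.000204), quantile normalization (1.25, adjusted p = 1.43e-05) and leaving out 0h replicate 3 (0.61), 46h replicate 1 (0.64) or 46h replicate 3 (0.59). MPC2 made up between 3.30 and 4.96% of the summed FPKM of the carrier at 0h, between 9.11 and 15.5% at 22h and between 12.5 and 21.6% at 46h, so that every later library exceeded every 0h library.

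The other genes listed for the transport of pyruvate and lactate, not all of which encode carriers, were barely detected. None of the 7 matched reached a mean of 1 FPKM. SLC16A7, a monocarboxylate transporter with high affinity for pyruvate, was the highest, at 0.273 ± 0.0602, 0.400 ± 0.0739 and 0.615 ± 0.101 FPKM. Its 46h libraries were above all 22h and all 0h libraries (exact two-sided permutation test, p = 0.0286 for each, the smallest that 4 against 4 libraries can give). SLC5A8 ran from 0.02 to 0.26 FPKM. SLC16A8, MPC1L and EMB were listed at 0 in most libraries, and SLC16A3 and SLC5A12 were listed at 0 in every library. SLC16A1 and BSG were not matched to an identifier and are not analysed here.

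The subunits of the E1 enzyme of pyruvate dehydrogenase, PDHA1 (alpha) and PDHB (beta), kept their level to 22h and fell together by 46h, 2.77-fold and 2.76-fold against 0h. The size of this fall depends on the scaling, since the log2 fold changes of -1.47 as deposited for each gene were -0.89 for PDHA1 and -0.82 for PDHB after quantile normalization, still past the thresholds. PDHA1 lies at chrX:15699924-15718908 (plus strand) and PDHB at chr13:40161519-40167502 (minus strand). DLAT, the E2 core that takes over the acetyl group, lies at chr9:39738639-39763813 (plus strand) and did not pass in any comparison.

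PDHA1 (ENSSSCG00000023643) was at 25.5, 20.1, 22.4 and 38.0 FPKM at 0h, 34.3, 24.7, 25.7 and 22.8 FPKM at 22h, and 9.65, 8.56, 7.87 and 8.54 FPKM at 46h. PDHB (ENSSSCG00000025881) was at 17.1, 21.1, 13.8 and 15.4 FPKM at 0h, 17.7, 15.0, 19.3 and 18.5 FPKM at 22h, and 5.29, 4.08, 7.33 and 5.29 FPKM at 46h. For each gene all 46h libraries lay below all 8 earlier ones, and 0h and 22h overlapped. From 0h to 22h the log2 difference was 0.05 for PDHA1 (SE 0.197, adjusted p = 0.876) and 0.07 for PDHB (SE 0.181, adjusted p = 0.796). From 22h to 46h it was -1.52 for PDHA1 (adjusted p = 2.05e-05) and -1.53 for PDHB (adjusted p = 8.34e-06). Of the 9 identifiers tested, PDHA1 and PDHB had steps that differed in the values as deposited, by the test of the difference, by -1.56 ± 0.341 (SE, adjusted p = 0.00473) and -1.60 ± 0.314 (SE, adjusted p = 0.00224), a contrast that 21.0% of all genes tested passed, 16.2% with this sign and 4.73% with the other. PDHA1 made up 60.4 ± 9.19, 60.2 ± 4.88 and 61.5 ± 6.90% of their summed FPKM, with overlapping ranges at all stages.

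DLAT (ENSSSCG00000015030) was at 6.93, 5.85, 6.82 and 11.1 FPKM at 0h, 10.4, 7.60, 9.86 and 8.18 FPKM at 22h, and 7.86, 6.79, 13.4 and 7.23 FPKM at 46h. The ranges of all stages overlapped, and 0h replicate 4 and 46h replicate 3 were the highest of their groups. Its log2 difference between 0h and 46h was 0.17 (SE 0.223, adjusted p = 0.536), and after quantile normalization it passed at 0.81 (adjusted p = 0.00110).

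Of the partners of the complex, LIAS, the lipoyl synthase that makes the cofactor carried by DLAT, fell between 22h and 46h. It was at 37.7 ± 5.23 FPKM at 0h, 37.2 ± 3.78 at 22h and 8.35 ± 1.87 at 46h (log2 fold change from 22h to 46h -2.05, adjusted p = 3.41e-07). PDHX, which anchors the E3 enzyme, was at 33.3 ± 9.56, 41.0 ± 7.72 and 34.1 ± 5.27 FPKM, and DLD, the E3 enzyme, at 4.56 ± 0.653, 5.15 ± 1.29 and 6.26 ± 0.566 FPKM. Neither passed in any comparison, with log2 differences from 0h to 46h of 0.07 (adjusted p = 0.804) for PDHX and 0.39 (adjusted p = 0.0557) for DLD. LIPT2, which supplies the octanoyl group from which LIAS makes lipoyl, was listed at 0 in 11 libraries. Of 5 partners above the filter, 1 (LIAS) passed from 0h to 46h, where 55.9% of all genes tested passed, and PDHA2 and LIPT1 were not matched.

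**Figure D3:**
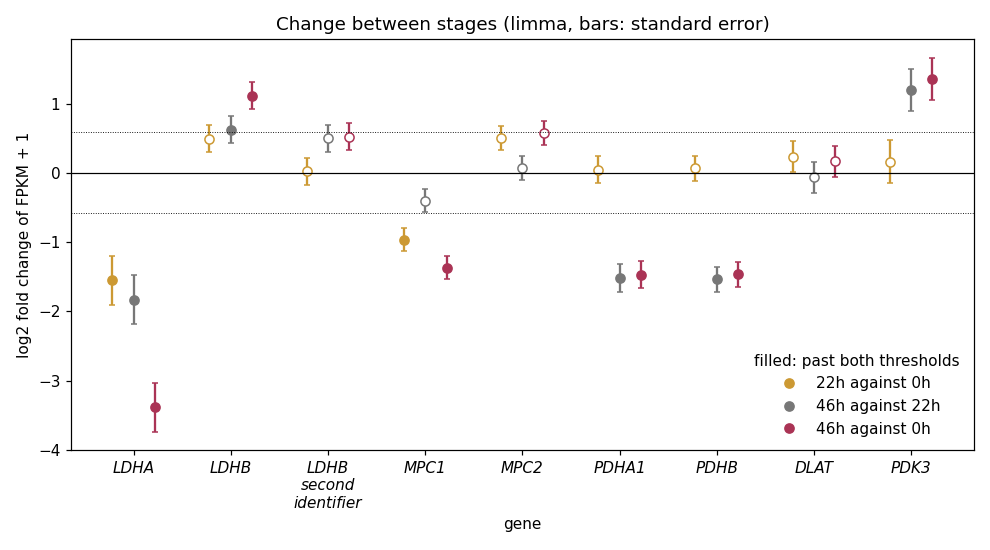
Log2 fold changes of the members above the filter in each comparison, with bars of 1 SE, filled points for those past both thresholds and dotted lines at a fold of 1.5. LDHA, MPC1, PDHA1 and PDHB lie to the low side and LDHB and PDK3 to the high side between 0h and 46h, and DLAT and MPC2 lie within the dotted lines.

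Among the kinases that switch pyruvate dehydrogenase off, PDK3 held nearly all of the FPKM and rose 2.56-fold between 0h and 46h. PDK3 lies at chrX:20486205-20598492, PDK1 at chr15:78608394-78650958 and PDK2 at chr12:26274562-26295787, all on the plus strand. PDK3 made up between 84.1 and 95.3% of the summed FPKM of PDK1, PDK2 and PDK3 at 0h, between 84.7 and 95.2% at 22h and between 89.7 and 96.2% at 46h. The sum was 7.92 ± 2.83, 8.94 ± 3.08 and 21.0 ± 4.94 FPKM.

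PDK3 (ENSSSCG00000012181) was at 10.4, 8.28, 6.56 and 3.82 FPKM at 0h, 3.97, 8.97, 11.4 and 8.81 FPKM at 22h, and 14.0, 17.0, 22.7 and 24.8 FPKM at 46h. Every 46h library exceeded every earlier one, and 0h and 22h overlapped nearly in full. The log2 fold change was 0.16 from 0h to 22h (adjusted p = 0.712), 1.20 from 22h to 46h (SE 0.307, adjusted p = 0.00525) and 1.36 over both (adjusted p = 0.00143), or 1.97 over both after quantile normalization. The difference between the steps, 1.03 ± 0.531 (SE), was not past the threshold (adjusted p = 0.186).

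PDK1 (ENSSSCG00000015958) was at 0.37, 0.14, 0.29 and 0.57 FPKM at 0h, 0.66, 0.45, 0.42 and 0.57 FPKM at 22h, and 1.43, 0.85, 1.42 and 0.98 FPKM at 46h. All 46h libraries were above all earlier ones, with p = 0.0286 against 22h and against 0h by the exact two-sided permutation test, the smallest that test can give, and p = 0.143 between 0h and 22h. Without 0h replicate 4 the exact permutation test between 0h and 22h gave p = 0.0286. PDK2 (ENSSSCG00000027198) was at 0.53, 0.27, 0.29 and 0.15 FPKM at 0h, 0.06, 0.00, 0.22 and 0.20 FPKM at 22h, and 0.17, 0.16, 0.33 and 0.00 FPKM at 46h. Its stages overlapped, and the exact two-sided permutation tests gave p = 0.114, 0.686 and 0.286 for 22h against 0h, 46h against 22h and 46h against 0h. PDK4, the fourth kinase, was at most 0.19 FPKM in any library.

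The phosphatases that act against the kinases were all low. PDP1 was at 1.05 ± 0.207, 0.928 ± 0.407 and 0.393 ± 0.0922 FPKM, its 46h libraries being below all earlier ones (exact two-sided permutation test, p = 0.0286 for each). PDP2 was at 0.955 ± 0.392, 1.498 ± 0.176 and 1.21 ± 0.413 FPKM and did not pass, and PDPR, the regulatory subunit, was at 1.63 ± 0.623, 2.50 ± 0.296 and 2.61 ± 0.786 FPKM, with a log2 difference of 0.46 between 0h and 46h (adjusted p = 0.0452) that is under the fold threshold.

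Set against its substrate, the PDK3 transcript stood at 40.8, 41.2, 29.3 and 10.1 FPKM per 100 FPKM of PDHA1 at 0h, 11.6, 36.3, 44.3 and 38.6 at 22h, and 145, 199, 289 and 291 at 46h. PDK3 was thus below PDHA1 in all 8 libraries at 0h and 22h and above it in all 4 at 46h. These are ratios of transcripts, and neither protein nor phosphorylation was measured.

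**Figure D4:**
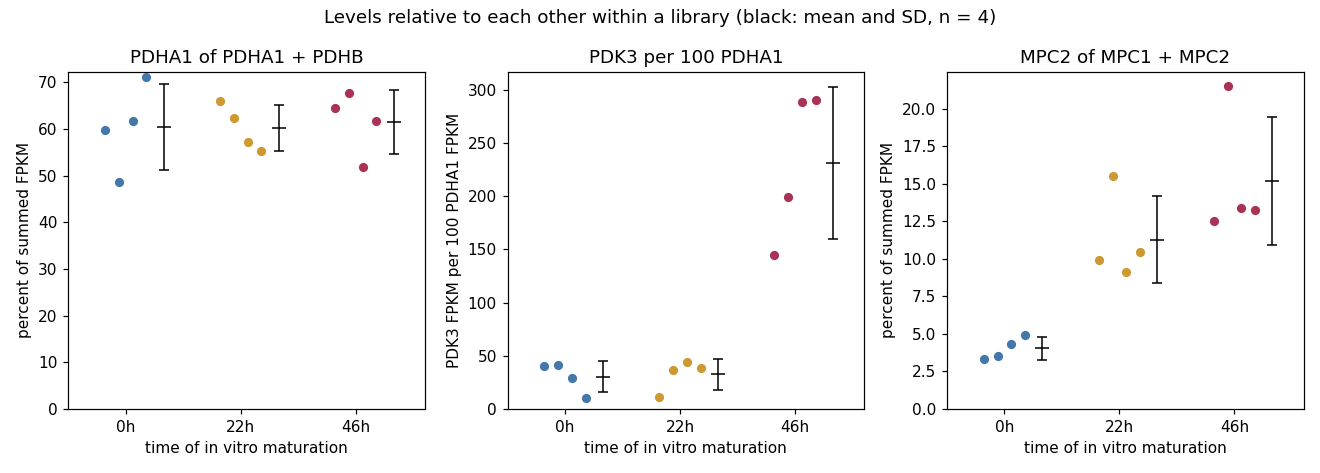
Shares within each library, for PDHA1 in percent of PDHA1 plus PDHB, PDK3 per 100 FPKM of PDHA1, and MPC2 in percent of MPC1 plus MPC2, with points for libraries at 0h, 22h and 46h and the mean with its SD. The PDHA1 share is about level at 60.4, 60.2 and 61.5%, whereas PDK3 per 100 PDHA1 has a mean of 30.4, 32.7 and 231.

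The order of the members by level changed with the stage. At 0h it ran LDHA, MPC1, LDHB, PDHA1, PDHB, DLAT, PDK3, MPC2, the other LDHB identifier, PDK1 and PDK2, and the ranges of neighbours were apart only between LDHB and PDHA1, between PDHB and DLAT, and above PDK1. LDHB led at 22h, its range overlapping with that of LDHA but not with that of MPC1, which overlapped with LDHA, and PDHA1, PDHB and DLAT followed, each apart from the one before. At 46h LDHB was apart from MPC1 and MPC1 from PDK3, while PDK3, LDHA, DLAT, PDHA1, MPC2 and PDHB each overlapped with the next. PDK3 thus went from the seventh place at 0h to the third at 46h.

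Genes whose log2(FPKM + 1) ran most like a member over the 12 libraries were found by Pearson's r among the named genes tested. These values are descriptions, since the points share their stage and their library. With LDHA these were AURKA (r = 0.987), ANXA5 (0.987) and ZNF77 (0.986). AURKA, a kinase of the meiotic spindle, had means of 1598, 745 and 366 FPKM at 0h, 22h and 46h. Like LDHA, AURKA was lower in 0h replicate 4 (893 FPKM) than in the other 0h libraries (1546 to 2018 FPKM). LDHB ran most like CCNE1 (0.978), TAOK3 (0.962) and RHEBL1 (0.951). CCNE1, which encodes cyclin E1, had means of 3.57, 4.85 and 7.78 FPKM. For MPC1 the nearest were EIF4E2 (0.991), NDUFAF1 (0.983) and MISP3 (0.981), of which NDUFAF1, an assembly factor of respiratory complex I, had means of 41.4, 19.5 and 11.9 FPKM. MPC2 had lower values with its nearest genes, WDR3 (0.921), MRPL34 (0.911) and RASSF3 (0.904), and MRPL34, a mitochondrial ribosomal protein, had means of 79.6, 105 and 129 FPKM.

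Around the 10 genes, 71 identifiers of the neighbouring reactions were matched and 40 were above the filter. From 0h to 22h 13 of these 40 passed, 3 higher and 10 lower, from 22h to 46h 19 (3 higher and 16 lower), and from 0h to 46h 28 (6 higher and 22 lower). Over all genes tested 26.7, 42.4 and 55.9% passed, and the counts of the first 2 comparisons are near those shares. Their median log2 fold change over the whole period was -0.65, against 0.17 for the 9 member identifiers and -0.25 for all genes tested.

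Between 0h and 46h 55.9% of all genes tested passed, 39.1% lower and 16.8% higher. The list named upper glycolysis also holds GAPDH and PGK1, which act in later steps. All 8 of its genes above the filter passed in that comparison, 7 lower and 1 higher. The exception was PGK1, phosphoglycerate kinase, at 3.07 ± 0.236, 4.22 ± 0.431 and 6.11 ± 0.597 FPKM, which is named although it is not among the largest changes. Of 4 enzymes above the filter on the list for making or using pyruvate, ENO1 and ME1 fell, ME2 rose and GPT2 did not pass. ENO1 is an enolase and makes phosphoenolpyruvate, the precursor of pyruvate, so it neither makes nor uses pyruvate itself. ME2 is the mitochondrial malic enzyme that makes pyruvate from malate, and it was at 336 ± 147, 354 ± 94.9 and 674 ± 97.1 FPKM (log2 fold change from 0h to 46h 1.12, adjusted p = 0.00590).

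In the citrate cycle, which takes in the acetyl-CoA, 11 of 16 genes above the filter passed between 0h and 46h, 9 lower and 2 higher, not far from the 55.9% of all genes tested. SUCLG1, the alpha subunit of succinyl-CoA ligase, fell by 3.17 on the log2 scale (adjusted p = 5.03e-08), whereas SUCLG2, a beta subunit, rose by 1.64 (adjusted p = 1.18e-07) and was at 61.3 ± 2.76, 95.5 ± 6.86 and 194 ± 19.0 FPKM. CS, citrate synthase, rose by 1.03 (adjusted p = 0.0123). IDH3B and IDH3G, subunits of isocitrate dehydrogenase, were lower at 22h than at 0h by -1.75 and -1.18 (adjusted p = 1.5e-05 and 0.000292), and DLST, the E2 of oxoglutarate dehydrogenase, was higher by 0.98 (adjusted p = 0.00252). SDHD, a membrane anchor of succinate dehydrogenase, was higher at 22h than at 0h by 0.72 (adjusted p = 0.00649) and lower at 46h than at 22h by -3.76 (adjusted p = 6.02e-10).

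The NADH shuttles regenerate the NAD+ that lactate dehydrogenase also regenerates when it makes lactate. Of 6 shuttle genes above the filter, 4 passed between 0h and 46h, 2 in each direction, close to the 55.9% of all genes tested. MDH1, cytosolic malate dehydrogenase, had the largest fall of the genes in these wider lists, from 143 ± 15.0 and 72.0 ± 12.3 to 1.91 ± 0.693 FPKM (log2 fold change -5.65, adjusted p = 1.77e-11). GOT2, the mitochondrial aspartate aminotransferase, was higher at 46h than at 22h by 0.65 (adjusted p = 0.0374).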

How the data were processed

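Each of the 12 files holds 1 FPKM value per Ensembl gene identifier, as deposited by the authors, who checked reads with FastQC, trimmed them with Trim Galore, aligned them with STAR to Sscrofa11 and quantified them with HTSeq and RSEM. SMART-Seq2 primes at poly(A) tails, so the values describe polyadenylated RNA. FPKM are relative to each library, without spike-in. No counts were at hand, so depth is unknown and the spread over 4 libraries is the measure of precision. Total FPKM was 697468 to 802184 per library, and 14275 identifiers were at 0 in every library.

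Identifiers were named from the RefSeq annotation of Sscrofa11.1 (15029) and, where it gave none, from the study's list of genes (172, among them MPC1 and the main LDHB identifier). The files carry no coordinates. Positions and sequences come from that RefSeq build and were read with Biopython 1.88 and samtools 1.23.1.

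Groups came from the labels, which say 22h where the series' design text gives a slightly later time. In R 4.3.3, limma 3.58.1 (lmFit, contrasts.fit, eBayes with trend) was run on log2(FPKM + 1) of the 7013 genes whose FPKM averaged 1 or more, all 12 libraries together with stage as the only factor, two-sided, with Benjamini-Hochberg correction across all of them. Genes under the filter were compared on log2(FPKM + 1) by an exact two-sided permutation test of 4 against 4 libraries (70 arrangements), without correction. The procedure was also run on simulated data with independent normal values. These lack the differences between libraries described above, so that run does not show how the test behaves under them. Tables and plots used Python 3.11.15, numpy 2.4.6, pandas 2.3.3 and matplotlib 3.10.9.

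Named are all members, every partner, other lactate dehydrogenase and transport gene by its level, the 3 largest rises and falls past the thresholds among the other lists in each comparison, and the 3 genes most like each of LDHA, LDHB, MPC1 and MPC2. A gene that this rule selects is not reported here. The members and lists were chosen with earlier results of these data known. Alternatives tried were another pseudocount (0.1), filter (none or 5 FPKM), scaling (TPM, with and without mitochondrially encoded genes, median-of-ratios, quantile), no intensity trend, a replicate block and leaving out each library. A fit of only the groups compared was also tried.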

Additional observations from a re-analysis of the deposited data

Results flagged for a closer look

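For every gene whose levels are given, the genes most like a member, and the sums and ratios within libraries, the 4 libraries of each stage were checked, 210 groups in all, and 16 had a library whose gap to the nearest other passed Dixon's critical value as a share of the group's range, where chance gives about 1 in 20. MPC2 in 22h replicate 2 was at 8.03 FPKM, against 5.94 to 6.12 in the other 22h libraries. MPC2 made up 21.6% of the carrier FPKM in 46h replicate 2, against 12.5 to 13.4% in the others. DLAT in 46h replicate 3 was at 13.4 FPKM, against 6.79 to 7.86, and PDPR in the same library at 3.78 FPKM, against 2.12 to 2.28. PGK1 in 22h replicate 3 was at 4.86 FPKM. Of the lactate dehydrogenase measures, LDHB made up 84.3% of the 3 transcripts in 46h replicate 3, LDHC made up 80.5% in 22h replicate 3, and the sum was 169.9 FPKM in 46h replicate 1. The summed oocyte markers were at 8538 FPKM in 46h replicate 3, ANXA5 at 10.1 FPKM in 0h replicate 4 and WDR3 at 4.25 FPKM in 22h replicate 2. PDK4 was listed at 0.0 in 0h replicate 4, against 0.12 to 0.13 FPKM. For the remaining 4 genes a value above 0 in a library stood against 0 in the rest of its stage, MPC1L at 0.73 FPKM in 0h replicate 4, SLC16A8 at 0.07 in 22h replicate 2, LIPT2 at 0.04 in 22h replicate 4 and EMB at 0.04 in 0h replicate 3.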

How the results depend on the processing

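Of 851 values of single members under an alternative, 798 kept direction and call, 25 newly passed, 4 no longer passed and 24 changed sign, none of them a called value. For many of the 798 the direction and size were fixed in advance. A log2 difference between stages does not move with the filter, the trend, the replicate block or a fit of only the groups compared. Leaving out a library of the uncompared stage does not move it either. The number of members passing from 0h to 22h, 2 as deposited, was 4 after quantile normalization and without 0h replicate 4 (LDHB and MPC2 added). It was 3 with a pseudocount of 0.1 and with TPM without mitochondrially encoded genes (MPC2 added), and ranged from 2 to 4 over left-out libraries. From 0h to 46h, with 6 as deposited, the number ranged from 6 to 7 over left-out libraries and was 7 without a filter. It was 8 with a pseudocount of 0.1, with median-of-ratios scaling and with TPM without mitochondrially encoded genes, and 9 after quantile normalization. From 22h to 46h it was 4 with TPM and 6 with median-of-ratios or quantile scaling, in place of 5, and the steps differed for 3 members in place of 2 after quantile normalization (MPC1 added). Genes passing from 0h to 46h numbered 2546 with a mean of at least 5 FPKM, where fewer genes were tested. With LDHC added to the sum, chosen after seeing the data, the LDHB share was 7.22, 9.97 and 80.0%. LDHB from 22h to 46h was 0.53 with TPM (adjusted p = 0.0276, under the fold threshold), and PDK1 in that step had an exact permutation p = 0.0571 without 22h replicate 2 or 3. Sign changes with scaling were MPC2 from 22h to 46h, -0.0102 with TPM, DLAT from 22h to 46h, 0.26 (median-of-ratios) and 0.42 (quantile), and the difference of the steps, 0.0109 (median-of-ratios) and 0.0634 (quantile) for LDHA and 0.0354 (quantile) for DLAT; the cause was not tested. Over left-out libraries, sign changes lay within -0.0946 to 0.176 for the other LDHB identifier from 0h to 22h, -0.0724 to 0.228 for PDHA1, -0.0156 to 0.177 for PDHB and -0.0749 to 0.437 for PDK3 in that step, -0.001 to 0.159 for MPC2, -0.263 to 0.0317 for DLAT and -0.0116 to 0.126 for PDK2 from 22h to 46h, -0.0322 to 0.339 for DLAT from 0h to 46h, and -0.665 to 0.196 for LDHA and -0.0668 to 0.294 for LDHB in the difference of the steps. Same-numbered libraries deviated from their stage means with correlations of -0.466 to 0.381. Between 22h and 46h these were 0.381, 0.009, 0.211 and 0.127 for replicates 1 to 4. Of 24 best matches 7 were with the own number, and libraries were not paired by number in the main test. With the replicate block 1801, 2933 and 3894 genes passed in place of 1873, 2975 and 3922, and 2, 5 and 6 members as before.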
